A study of Mus musculus with 16 samples.

Results

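The change in gene expression from Flk+ mesodermal cells to the first stage of the hemogenic endothelium (HE1) was compared between Sp1+/+ and Sp1-/- cells. The comparison used the 8 arrays of these populations, 2 for each combination of genotype and population, out of 16 arrays in the series. For each gene, the HE1 value minus the Flk+ value was taken within each genotype, and the Sp1+/+ change was subtracted from the Sp1-/- change. A negative difference of the change means that the gene rose less, or fell more, in Sp1-/- cells. The arrays were taken by their labels. The labels give E14 wild-type embryonic stem (ES) cells as the source of the Sp1+/+ samples, Sp1-/- ES cells as the source of the others, and C57BL/6 as the strain of both. Both alleles of the Sp1-/- cells are mutated and yield a shortened Sp1 protein without its DNA-binding domain, and these cells are 1 clone. Flk+ cells were taken by magnetic sorting from embryoid bodies for FLK1, the VEGF receptor encoded by Kdr. They were then placed in blast culture, from which KIT+ CD41- Tie2+ cells were sorted as HE1, with floating and adherent cells combined. The study asked at which stage of blood formation the loss of Sp1 DNA binding alters gene expression. The later populations, HE2 (the CD41+ stage of the hemogenic endothelium) and KIT+ CD41+ Tie2- progenitors, are used here only to follow genes beyond HE1. Per the methods, they were sorted together with HE1 from the same blast cultures. Later thus means a later stage, not a later time.

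Sp1 is a widely expressed zinc-finger transcription factor that binds GC boxes, GC-rich motifs found in many promoters, and shares this motif with other members of the Sp and Klf family. Mesodermal cells that carry FLK1 can form endothelial, blood and cardiac cells. On the way to blood they pass through the hemogenic endothelium, whose cells carry endothelial receptors and junction proteins and switch on hematopoietic regulators such as Runx1 before they release free progenitors.

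All values are log2 intensities of 1-color Agilent arrays, as deposited by the authors, and each gene is read from its brightest probe. Between 67.0% and 77.1% of the spots on the 8 arrays were well above background and 0 were saturated. The number of arrays limits the precision, and whether the 2 replicates of a group come from separate differentiations is not settled by the sources, so each p measures only the spread between these arrays. Each genotype was hybridized on a slide of its own. A constant difference between the slides cancels in the difference of the change, whereas a slide difference that itself varies between populations was not tested. Within 1 population, a difference between the genotypes and one between the slides cannot be told apart. The Sp1+/+ samples come from E14 cells and the Sp1-/- samples from 1 clone. A difference between these cells that varies between populations and the loss of Sp1 thus cannot be told apart. In these bulk samples a change in the share of a cell type and a change of RNA per cell cannot be told apart either. The median SD over genes between replicates was 0.09 in Sp1+/+ Flk+ cells, 0.10 in Sp1+/+ HE1 and 0.08 in Sp1-/- Flk+ cells, but 0.13 in Sp1-/- HE1, whose 2 arrays stood farthest apart.

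The targeted gene Sp1 read 12.53 and 12.56 in Sp1+/+ Flk+ cells, 12.39 and 12.42 in Sp1+/+ HE1, 10.29 and 10.25 in Sp1-/- Flk+ cells, and 9.03 and 9.22 in Sp1-/- HE1. Both genotypes thus kept separate ranges in both populations. The level was lower in HE1 than in Flk+ cells in both genotypes, by far more in Sp1-/- cells. The Sp1-/- change was -1.15 and the Sp1+/+ change -0.14, a difference of -1.005 (standard error 0.14, limma with Benjamini-Hochberg adjustment, adjusted p = 0.0998). Where the probe lies relative to the deleted part was not determined here. The sort markers were measured in both genotypes without a called difference. Tek (Tie2) read 7.16 and 8.15 in Sp1+/+ Flk+ cells against 12.34 and 12.50 in Sp1+/+ HE1, and 7.21 and 8.11 against 11.89 and 11.65 in Sp1-/- cells. Itga2b (CD41), which HE1 lacks on its surface by the sort, read 10.61 and 10.60 in Sp1+/+ HE1 and 10.66 and 11.43 in Sp1-/- HE1, above both Flk+ groups.

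A gene was called where limma's p before adjustment was at most 0.01 and the difference at least 2-fold, and of 36977 genes tested 498 (1.35%) were called for the change. The change was lower in Sp1-/- cells for 302 genes (0.817%) and higher for 196 (0.53%). When each array's processed signal was instead divided by its 75th percentile, the split was 321 lower and 327 higher, and the median over all genes moved from -0.00 to 0.11 on the log2 scale. The p threshold alone passed 1158 genes, where about 370 would pass by chance, and among the 498 called genes the adjusted p reached 0.316. At an adjusted p of 0.05 or less (limma, Benjamini-Hochberg) and 2-fold, 17 genes passed (0.046%), 12 lower and 5 higher. The changes of the 2 genotypes did not overlap over the arrays in any of the 498 called genes, nor in 23% of all genes tested. Without overlap, leaving out 1 array cannot turn the direction of a called gene. Without Sp1-/- HE1 replicate 1, 1327 genes were called, 536 lower and 791 higher, of which 406 are among the 498, and all 498 kept their direction.

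Sorting the called genes by which genotype moved split them over both genotypes. In Sp1+/+ cells alone 3152 genes changed between the populations (8.52% of all genes), 1710 upward (4.62%) and 1442 downward (3.9%). In Sp1-/- cells 3458 changed (9.35%), 1654 upward (4.47%) and 1804 downward (4.88%). Between the genotypes, 1.5% of all genes differed in Flk+ cells, 0.66% higher and 0.844% lower in Sp1-/-, and 1.9% in HE1, 0.8% higher and 1.1% lower. Among the 302 genes with a lower change in Sp1-/- cells, 111 fell only in Sp1-/- cells and 72 rose only in Sp1+/+ cells. In 45 genes both rose, the Sp1-/- cells by less, in 32 both fell, the Sp1-/- cells by more, in 2 the directions were opposite, and in 40 neither change passed the test alone. Among the 196 genes with a higher change, 56 rose only in Sp1-/- cells, 53 fell only in Sp1+/+ cells, 26 fell in both and 24 rose in both. Opposite directions were seen in 1 gene, and neither change passed in 36. Here and below, a genotype that moved alone is one whose change passed the test while the other's did not, which does not show that the other stayed level. Without Sp1-/- HE1 replicate 1, the genes that rose only in Sp1-/- cells went from 56 to 486, those that fell only in Sp1-/- cells from 111 to 212, those that rose only in Sp1+/+ cells from 72 to 109, and those that fell only in Sp1+/+ cells from 53 to 81. The plot of both changes shows the called genes as 2 bands along the diagonal.

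**Figure D1:**
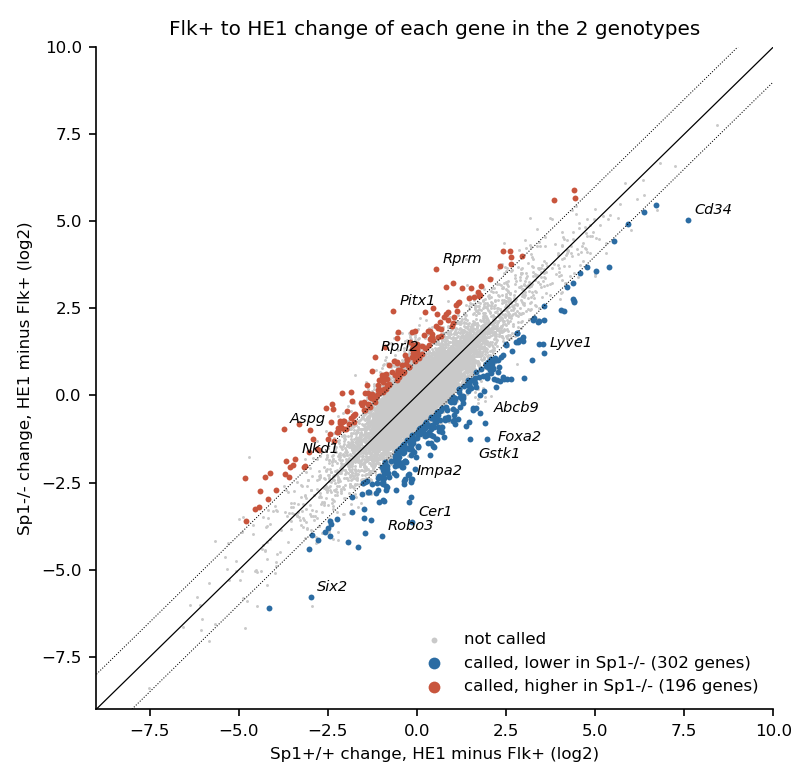
Each point is 1 of 36977 genes. The horizontal axis is the HE1 minus Flk+ change in Sp1+/+ cells and the vertical axis the same change in Sp1-/- cells, both log2, with n = 2 arrays for each genotype and population. The solid line marks equal changes and the dotted lines a 2-fold difference. The 302 blue genes lie below the diagonal and the 196 red genes above it, and Cd34 has the largest Sp1+/+ rise among the labelled genes.

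In the first class, genes rose on entry to HE1 in Sp1+/+ cells and did not pass the test in Sp1-/- cells. Abcb9, a lysosomal peptide transporter, read 7.57 and 7.35 in Sp1+/+ Flk+ cells and 9.50 and 9.25 in Sp1+/+ HE1, against 8.41 and 8.25, then 7.62 and 7.48, in Sp1-/- cells. The order of the genotypes was thus turned between the populations with no overlap in either. The difference of the change was -2.70 (standard error 0.19, limma, adjusted p = 0.0255). Tmem159, a lipid droplet protein, read 8.09 and 7.94 in Sp1+/+ Flk+ cells, 9.61 and 9.72 in Sp1+/+ HE1, 6.83 and 7.07 in Sp1-/- Flk+ cells, and 6.57 and 6.59 in Sp1-/- HE1. It was lower in Sp1-/- cells from the start and the gap widened by 2.02 (standard error 0.17, adjusted p = 0.0330). Renbp, which encodes the renin-binding protein, went from 10.51 and 10.39 to 12.30 and 12.16 in Sp1+/+ cells and from 9.65 and 9.13 to 8.62 and 9.17 in Sp1-/- cells. Its Sp1-/- arrays overlapped between the populations while the Sp1+/+ arrays rose by 1.78. Txnip, a thioredoxin-binding protein that restrains glucose uptake, went from 11.56 and 11.45 to 13.09 and 12.64 in Sp1+/+ cells, and read 12.90 and 13.29, then 12.40 and 12.03, in Sp1-/- cells. The Sp1-/- changes of Abcb9 and Txnip were -0.78 and -0.88, short of 2-fold, with both HE1 arrays below both Flk+ arrays. Plek, pleckstrin, a protein kinase C substrate of platelets and leukocytes, rose by 2.63 in Sp1+/+ cells, where the HE1 arrays read 9.65 and 8.41, and stood at 7.22 and 7.70 in Sp1-/- HE1. It was called under 12 of 17 alternative settings. Vgf, a neuropeptide precursor, rose by 2.52 in Sp1+/+ cells against a change of 0.47 in Sp1-/- cells.

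**Figure D2:**
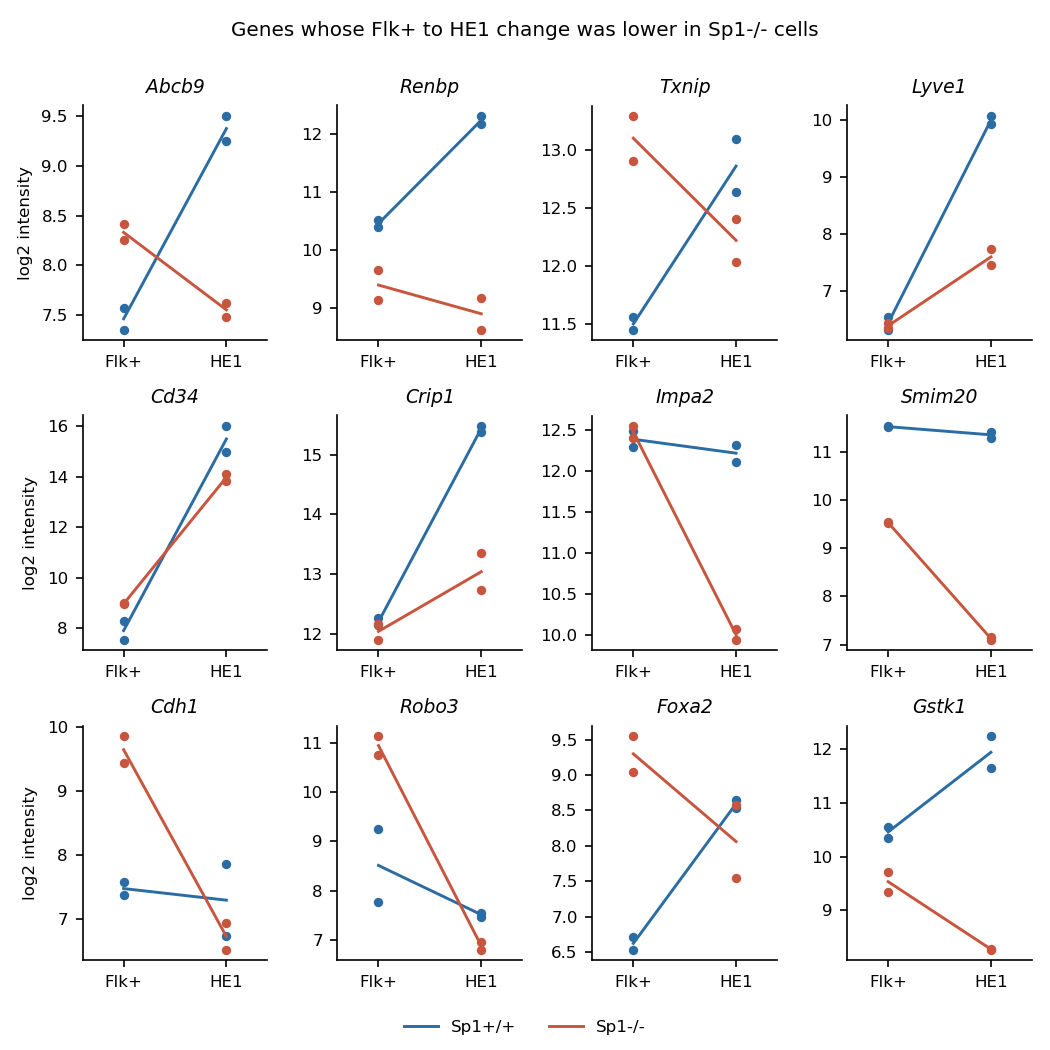
Log2 intensity (vertical axis) in Flk+ and HE1 cells for 12 genes whose change was lower in Sp1-/- cells. Points are single arrays, 2 in each group, and lines join the group means. Abcb9, Foxa2 and Txnip cross between the genotypes, Impa2 starts level at about 12.4 and parts in HE1, and Cd34 rises in both.

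In the second class, both genotypes rose and the Sp1-/- cells rose by less, and here endothelial genes were found. Cd34, a sialomucin of endothelial and hematopoietic progenitor cells, went from 7.53 and 8.26 to 14.99 and 16.01 in Sp1+/+ cells and from 8.98 and 8.93 to 13.83 and 14.13 in Sp1-/- cells. The genotypes did not overlap in either population, with Sp1-/- higher in Flk+ cells and lower in HE1, and the difference of the change was -2.58 (standard error 0.51, limma, adjusted p = 0.181). Lyve1, a hyaluronan receptor of lymphatic and early yolk sac endothelium, was level in Flk+ cells, at 6.33 and 6.56 in Sp1+/+ and 6.36 and 6.44 in Sp1-/-. In HE1 it read 10.07 and 9.93 in Sp1+/+ and 7.74 and 7.47 in Sp1-/-, a difference of the change of -2.35 (standard error 0.19, adjusted p = 0.0330). Crip1, a small LIM domain protein, was likewise level in Flk+ cells and read 15.48 and 15.39 in Sp1+/+ HE1 against 12.73 and 13.36 in Sp1-/- HE1. Of the list of 25 endothelial receptors and junction genes, 20 rose in each genotype and 1 fell in Sp1-/- cells. It was lower in Sp1-/- cells for 5, which are Cd34, Lyve1, Robo4, Sox18 and Aplnr, and higher for 0, where 0.817% of all genes were called lower. The median difference of the list was -0.39 against -0.00 over all genes, and 20 of its 25 genes had a negative value. Robo4, an endothelial guidance receptor, ended level in HE1 (12.94 and 13.64 in Sp1+/+, 13.18 and 13.40 in Sp1-/-) after a higher start in Sp1-/- Flk+ cells (9.62 and 9.59 against 8.17 and 7.62). Sox18, an endothelial transcription factor, and Aplnr, the apelin receptor, ended lower in Sp1-/- HE1, at 12.47 and 12.51 against 13.63 and 13.45 for Sox18. Aplnr did not change in Sp1+/+ cells by the test and fell by 1.22 in Sp1-/- cells. The calls of Sox18 and Aplnr held under 10 and 9 of 17 settings. Without Sp1-/- HE1 replicate 1, 3 of the 5 endothelial calls remained, those of Cd34, Lyve1 and Robo4.

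In the third class, genes fell only in Sp1-/- cells, and their start in Flk+ cells varied. In some, the difference between the genotypes in Flk+ cells did not pass the test and that in HE1 did. Impa2, an inositol monophosphatase, read 12.49 and 12.29 in Sp1+/+ Flk+ cells, 12.55 and 12.40 in Sp1-/- Flk+ cells, 12.11 and 12.32 in Sp1+/+ HE1, and 9.94 and 10.07 in Sp1-/- HE1. Its difference was -2.29 (standard error 0.18, limma, adjusted p = 0.0312). Trp53i11, a p53-inducible gene, fell by 2.4 in Sp1-/- cells, to 9.34 and 8.88, and stayed at 10.79 and 10.78 in Sp1+/+ HE1. Smim20, a small mitochondrial inner membrane protein, was already lower in Sp1-/- Flk+ cells (9.55 and 9.52 against 11.54 and 11.52) and dropped to 7.10 and 7.15 in Sp1-/- HE1, with 11.41 and 11.30 in Sp1+/+ HE1. Its difference of -2.23 had the smallest standard error of the named genes in this class, 0.13 (adjusted p = 0.0255). In other genes, the Sp1-/- cells were higher in Flk+ cells and did not differ by the test in HE1. Robo3, an axon guidance receptor, read 11.13 and 10.74 in Sp1-/- Flk+ cells against 9.25 and 7.78, and 6.97 and 6.81 in Sp1-/- HE1 against 7.48 and 7.56. Slit1, a ligand of the Robo family, read 11.53 and 11.40 against 9.39 and 8.55 in Flk+ cells and 8.57 and 8.27 against 8.75 and 8.76 in HE1. Cdh1, E-cadherin, read 9.85 and 9.43 in Sp1-/- Flk+ cells against 7.58 and 7.38, and the genotypes overlapped in HE1. Cer1, a secreted inhibitor of BMP and Nodal, is one of these, with 10.23 and 9.30 in Sp1-/- Flk+ cells and 6.43 and 6.08 in Sp1+/+ Flk+ cells. It was not well above background on any HE1 array, so its Sp1-/- fall is given as at least 12.3-fold and its difference of the change has no bound.

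Further genes with a lower change passed the test in both genotypes. Six2, a homeobox regulator, fell by 2.98 in Sp1+/+ cells and by 5.79 in Sp1-/- cells, from 14.30 and 14.13 to 8.87 and 7.97. Chchd10, a mitochondrial protein, started higher in Sp1-/- Flk+ cells (13.85 and 13.24 against 12.37 and 12.30) and ended lower in HE1 (9.91 and 10.04 against 11.27 and 10.80). Zic2, a zinc-finger regulator of early ectoderm, fell by 3.53 in Sp1-/- cells and 1.48 in Sp1+/+ cells and was called under 13 of 17 settings. Among the list of 30 primitive streak and mesoderm genes, 18 fell in each genotype, where 3.9% of all genes fell in Sp1+/+ and 4.88% in Sp1-/- cells. The change was lower in Sp1-/- cells for 2, Fgf8 and Isl1 (0.817% of all genes). Fgf8, a growth factor of the primitive streak, read 13.55 and 12.64 in Sp1-/- Flk+ cells against 11.61 and 11.09, and both genotypes reached about the same level in HE1. Foxa2, an endoderm regulator, and Gstk1, a mitochondrial glutathione transferase, moved in opposite directions. Foxa2 rose from 6.71 and 6.53 to 8.65 and 8.54 in Sp1+/+ cells and fell from 9.55 and 9.05 to 8.58 and 7.54 in Sp1-/- cells. Gstk1 rose from 10.56 and 10.35 to 11.65 and 12.24 in Sp1+/+ cells and fell from 9.72 and 9.35 to 8.27 and 8.29 in Sp1-/- cells.

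Promoter windows show the letters that Sp1 is known to recognize. The GC box letters GGGCGG were searched on both strands, counting overlapping matches, in RefSeq windows of GRCm38.p6 that run from 250 bases before to 50 after a transcription start. Of the 15899 tested genes with a window, 52.9% had at least 1 match in a window. The share was 75.8% of the 198 genes with a lower change and 59.8% of the 112 with a higher change. Of the 8 genes with a window that passed an adjusted p of 0.05 (limma, Benjamini-Hochberg) and 2-fold, 4 (50%) had a match. The share was 70.1% of the genes that rose and 69.9% of those that fell in Sp1+/+ cells. In Sp1-/- cells it was 68.2% of those that rose and 70.5% of those that fell. The share of the genes with a lower change thus stands beside these, and was not tested against them. The windows of 5 genes of the classes above are printed because they run from 6 matches to 0 among genes whose HE1 level was lower in Sp1-/- cells. Capitals mark the GC box on either strand, and a gene on the minus strand is printed in its own direction.

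Abcb9, chr5:124095749-124096048, minus strand, 6 GC boxes: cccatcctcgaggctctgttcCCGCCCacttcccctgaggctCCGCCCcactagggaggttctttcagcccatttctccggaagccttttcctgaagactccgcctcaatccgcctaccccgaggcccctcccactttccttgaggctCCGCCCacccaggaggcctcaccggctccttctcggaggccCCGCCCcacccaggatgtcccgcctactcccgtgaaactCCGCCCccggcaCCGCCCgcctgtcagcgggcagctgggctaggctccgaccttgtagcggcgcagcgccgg
Crip1, chr12:113151762-113152061, plus strand, 3 GC boxes: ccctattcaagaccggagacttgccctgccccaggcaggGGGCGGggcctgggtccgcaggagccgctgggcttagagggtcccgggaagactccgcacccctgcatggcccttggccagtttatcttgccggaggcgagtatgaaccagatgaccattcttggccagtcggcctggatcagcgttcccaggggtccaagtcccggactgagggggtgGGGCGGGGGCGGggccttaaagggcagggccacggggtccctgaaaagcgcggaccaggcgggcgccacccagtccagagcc
Renbp, chrX:73930801-73931100, minus strand, 2 GC boxes: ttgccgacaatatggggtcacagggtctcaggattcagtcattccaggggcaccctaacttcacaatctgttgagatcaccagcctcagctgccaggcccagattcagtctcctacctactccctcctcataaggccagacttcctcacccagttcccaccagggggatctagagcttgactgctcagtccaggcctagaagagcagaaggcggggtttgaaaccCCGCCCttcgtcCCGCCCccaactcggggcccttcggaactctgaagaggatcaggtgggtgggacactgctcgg
Smim20, chr5:53266856-53267155, plus strand, 1 GC box: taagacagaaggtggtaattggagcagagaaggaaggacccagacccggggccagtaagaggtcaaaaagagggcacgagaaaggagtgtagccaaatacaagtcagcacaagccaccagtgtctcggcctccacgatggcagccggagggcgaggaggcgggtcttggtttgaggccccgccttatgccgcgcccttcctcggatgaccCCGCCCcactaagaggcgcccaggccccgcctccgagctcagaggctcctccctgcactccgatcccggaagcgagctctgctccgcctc
Cd34, chr1:194938571-194938870, plus strand, 0 GC boxes: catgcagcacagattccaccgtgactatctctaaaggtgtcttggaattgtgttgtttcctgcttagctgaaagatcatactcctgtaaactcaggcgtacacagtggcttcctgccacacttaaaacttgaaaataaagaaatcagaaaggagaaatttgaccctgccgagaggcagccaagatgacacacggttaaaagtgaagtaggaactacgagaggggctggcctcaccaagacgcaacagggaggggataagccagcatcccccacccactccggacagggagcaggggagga

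Abcb9, with 6 matches, rose in Sp1+/+ cells and changed by -0.78, short of 2-fold, in Sp1-/- cells. Cd34, with 0, rose in both genotypes. Crip1 had 3 matches, 2 of them side by side, Renbp 2 and Smim20 1. A match is a description of the sequence, and binding at these windows is not analysed here.

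Higher changes in Sp1-/- cells were first seen in genes that rose only there. Rprm, an inhibitor of the cell cycle at G2, read 7.87 and 8.07 in Sp1-/- Flk+ cells and 11.51 and 11.69 in Sp1-/- HE1, against 8.55 and 9.61, then 10.10 and 9.12, in Sp1+/+ cells. The genotypes did not overlap in either population and changed order, with a difference of the change of 3.1 (standard error 0.58, limma, adjusted p = 0.160). Aldh1a1, a retinaldehyde dehydrogenase, was level in Flk+ cells and read 9.40 and 9.15 in Sp1-/- HE1 against 7.12 and 7.71 in Sp1+/+ HE1. Hpn, a membrane serine protease, rose from 7.99 and 7.37 to 9.30 and 9.72 in Sp1-/- cells, whereas Sp1+/+ cells read 9.48 and 9.04, then 8.86 and 8.60. Isg15, a ubiquitin-like protein of the interferon response, read 9.48 and 9.55, then 9.37 and 9.41, in Sp1+/+ cells, and 9.34 and 9.09, then 10.71 and 10.60, in Sp1-/- cells. The difference of Isg15 was 1.56 (standard error 0.16, adjusted p = 0.0549). Colec11, a collectin of the lectin pathway, and Pitx1 and Twist2, regulators of limb and mesenchyme, rose only in Sp1-/- cells as well, by 3.21, 2.43 and 1.41. Their calls held under 13, 9 and 13 of 17 settings.

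In other genes with a higher change, the fall passed the test in Sp1+/+ cells and not in Sp1-/- cells. Aspg, an asparaginase, read 11.84 and 11.41 in Sp1+/+ Flk+ cells and 8.35 and 8.60 in Sp1-/- Flk+ cells, and the genotypes overlapped in HE1 at 7.76 and 8.00 against 7.03 and 7.99. Snora74a, a small nucleolar RNA, fell from 11.16 and 11.42 to 9.05 and 9.31 in Sp1+/+ cells and stood at 9.78 and 9.45, then 9.59 and 9.76, in Sp1-/- cells. Tmem114, a membrane protein, fell by 3.31 in Sp1+/+ cells, Mpzl2, an adhesion protein of epithelia and thymus, by 2.55, and Mfsd2a, a lysophospholipid transporter, by 2.39. The Sp1-/- changes were -0.82, -0.36 and -0.25. Tmem114 and Aspg were thus also lower in both Sp1-/- HE1 arrays than in both Sp1-/- Flk+ arrays, with a change of -0.96 for Aspg, short of 2-fold. Defa37, a member of the defensin family, belongs to this class as well. Its relatives Defa32 and Defa3 fell by the test in both genotypes, with changes of -2.73 and -2.06 in Sp1-/- cells. Their calls for the difference of the change held under 10 and 5 of 17 settings. All of these defensin genes started higher in Sp1+/+ Flk+ cells. Their sequences are close to each other and probes may share signal, so they are uncertain as single genes. Where both genotypes fell, Nkd1, an inhibitor of Wnt signaling, stayed higher in Sp1-/- HE1 (11.18 and 10.74 against 9.54 and 9.53) after a level start. Where both rose, Sp1-/- cells went further for Ccl17, a chemokine, at 11.33 and 11.03 against 10.02 and 9.69 in HE1, and for Wipf3, an actin regulator, at 12.74 and 12.64 against 11.02 and 10.64. Was, the Wiskott-Aldrich syndrome protein of blood cells, rose by 3.08 in Sp1-/- cells and 1.52 in Sp1+/+ cells. Rprl2, an RNase P RNA-like transcript, fell from 12.86 and 13.11 to 12.11 and 11.49 in Sp1+/+ cells and rose from 11.73 and 11.17 to 12.38 and 12.71 in Sp1-/- cells.

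In some called genes neither change passed the test alone. Cdkn1c, the imprinted cell cycle inhibitor p57, read 13.10 and 13.35, then 12.69 and 11.79, in Sp1+/+ cells, and 13.92 and 13.77, then 14.45 and 14.43, in Sp1-/- cells. Its call held under 10 of 17 settings. Vegfc, a growth factor for lymphatic endothelium, was level in Flk+ cells and read 12.96 and 13.08 in Sp1-/- HE1 against 11.84 and 11.67 in Sp1+/+ HE1. Lhpp, a histidine phosphatase, stood 2.25 lower in Sp1-/- Flk+ cells and 0.73 lower in HE1. Kcnk5, a potassium channel, Anxa11, an annexin, and Ppp1r14a, an inhibitor of myosin phosphatase, went the other way, with HE1 differences between the genotypes of -2.38, -1.92 and -1.81 that passed the test and Flk+ differences that did not. The second probe of Anxa11 had a difference of the change of the opposite sign, and its call held under 11 of 17 settings. Garem2, an adaptor of growth factor signaling, was 1.59 lower in Sp1-/- Flk+ cells and level in HE1.

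In 2 metabolic lists most genes had a difference of the same sign, although few passed the test. Of 23 genes of cholesterol synthesis and uptake, 21 had a positive difference of the change, with a median of 0.70 on the log2 scale against -0.00 over all genes. Their median change was -0.54 in Sp1+/+ cells and 0.20 in Sp1-/- cells. The test called 3 higher, among them Mvd and Mvk, and 0 lower, where 0.53% of all genes were called higher. Mvd, the mevalonate pyrophosphate decarboxylase, read 12.40 and 12.68, then 12.11 and 11.87, in Sp1+/+ cells and 11.67 and 11.68, then 12.22 and 12.33, in Sp1-/- cells. The genotypes thus changed order without overlap in either population, and the call held under 17 of 17 settings. Mvk, the mevalonate kinase, read 13.44 and 13.75, then 13.64 and 13.45, in Sp1+/+ cells and 13.21 and 13.18, then 14.11 and 14.28, in Sp1-/- cells, and held its call under 13 of 17 settings. Of 26 genes of glycolysis and the response to low oxygen, 24 had a negative difference, with a median of -0.52. The test called 3 lower for the change and 0 higher, where 0.817% of all genes were called lower. In Sp1-/- cells 15 of the list fell and 0 rose, where 4.88% of all genes fell and 4.47% rose. In Sp1+/+ cells 7 fell and 2 rose, where 3.9% of all genes fell and 4.62% rose. Vegfa, the ligand of FLK1, was called lower, with 10.82 and 10.98, then 12.71 and 12.63, in Sp1+/+ cells and 11.65 and 12.01, then 11.99 and 11.68, in Sp1-/- cells. Pgk1, a glycolytic kinase, was higher in Sp1-/- Flk+ cells (17.09 and 17.25 against 16.50 and 16.30) and lower without overlap in HE1 (15.71 and 15.33 against 15.90 and 16.10). Pfkp, a phosphofructokinase, had a difference of -1.03, but its second probe had the opposite sign and the call held under 8 of 17 settings. Without Sp1-/- HE1 replicate 1, the cholesterol median was 0.54 and the glycolysis median -0.62.

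**Figure D3:**
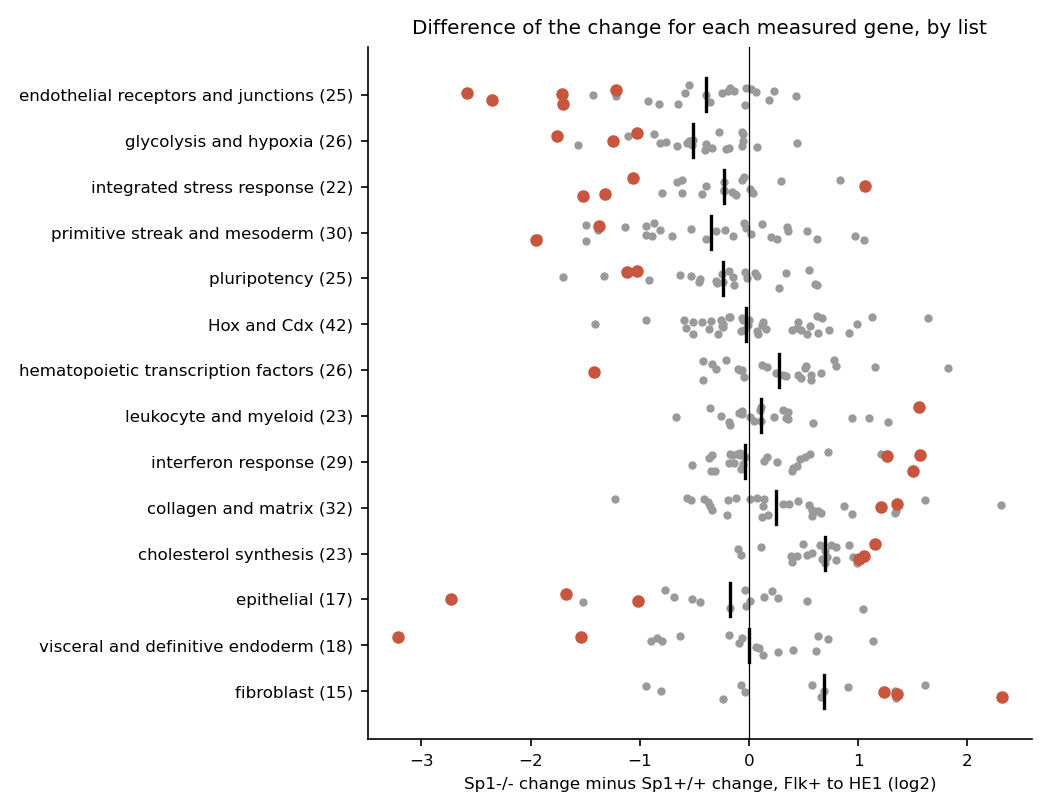
Difference of the change (Sp1-/- minus Sp1+/+, HE1 minus Flk+, log2, horizontal axis) for each measured gene of 14 lists, with the number of genes in brackets. Red points are called genes, grey points are not called, and the black bar is the median of the list. The cholesterol genes lie mostly to the right (median 0.70), the glycolysis genes to the left (median -0.52), and the 42 Hox and Cdx genes lie on both sides with 0 called.

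Stress and interferon genes gave mixed counts. Of 22 genes of the integrated stress response, Trib3, Chac1 and Ddit4 had a lower change and Ppp1r15a a higher one, where 0.817% of all genes were called lower and 0.53% higher, with a list median of -0.23. Trib3, a pseudokinase induced by ATF4 and CHOP, read 11.56 and 11.66 in Sp1-/- Flk+ cells against 9.88 and 9.59, and 9.64 and 9.49 against 8.87 and 8.63 in HE1, so that the gap narrowed and the genotypes stayed apart. Chac1, a glutathione-degrading enzyme, showed the same order, at 12.41 and 12.29 against 10.08 and 9.47, then 10.10 and 10.08 against 8.66 and 9.01. Ddit4, an inhibitor of mTOR signaling, fell by 2.52 in Sp1-/- cells, to 12.33 and 11.95 in HE1 against 13.06 and 13.22 in Sp1+/+ HE1. Of 29 measured interferon response genes, Isg15, Oasl2 and Oas1a had a higher change (0.53% of all genes did), and the list median was -0.04, which was 0.28 with the 75th percentile scaling.

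For the regulators of blood formation the counts of called genes were small, and over all genes 0.817% were called lower and 0.53% higher. At these shares, a count of 0 or 1 does not set a list of this size apart from all genes. Of 26 hematopoietic transcription factors, 1 was called, Meis1, a homeobox partner of Hox proteins, which rose from 8.45 and 8.43 to 11.68 and 11.16 in Sp1+/+ cells and from 9.28 and 9.36 to 10.74 and 11.02 in Sp1-/- cells. The list median was 0.28. Runx1, chosen after its values were seen, averaged 10.99 ± 0.41 (SD, n = 2) in Sp1+/+ Flk+ cells and read 10.03 and 9.08 in Sp1+/+ HE1, against 10.60 and 10.83, then 10.76 and 11.44, in Sp1-/- cells. Its difference of 1.82 (standard error 0.52, limma, adjusted p = 0.323) was not called, and without Sp1-/- HE1 replicate 1 it was called higher beside Meis1. Of 42 Hox and Cdx genes, 0 were called by limma at the same thresholds and the median was -0.03, or 0.42 with the 75th percentile scaling. Within the populations, 5 were lower and 1 higher in Sp1-/- Flk+ cells (0.844% and 0.66% of all genes). In Sp1-/- HE1, 4 were lower (1.1% of all genes). Of the measured erythroid and megakaryocyte genes (25 and 18), 0 were called by limma, with or without Sp1-/- HE1 replicate 1. The mean of the erythroid list was 10.35 and 9.16 on the Sp1+/+ HE1 arrays, against 9.71 and 9.65 in Sp1-/- HE1, and this spread limits what the test could call. Of 21 Notch and arterial genes, Dll1, a Notch ligand, and Gja5, a gap junction protein of arteries, were called lower. Dll1 was high in Sp1-/- Flk+ cells alone (9.51 and 8.90) and held its call under 8 of 17 settings. Gja5 held under 11, and its second probe had the opposite sign. Of 34 Wnt genes, Nkd1 was higher and Wnt9a lower, the latter with 8.05 and 8.03 in Sp1+/+ HE1 against 7.04 and 6.40 in Sp1-/- HE1. The Wnt9a call held under 9 of 17 settings. Of 25 pluripotency genes, Esrrb and Dppa4 were lower, the latter under 6 of 17 settings, and of 24 cytokine receptors and ligands, 23 of them measured, Vegfc was higher. Of the other Sp and Klf genes, Klf8, a repressor of the family, was called higher (1.12).

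Some markers of other cell types were also called for the difference of the change, and their part in the results was not tested. Of 18 endoderm markers, 4 were higher and 0 lower in Sp1-/- Flk+ cells (0.66% and 0.844% of all genes). Well above background were 16 markers in these cells and 12 in Sp1+/+ Flk+ cells. Their mean level ran from 7.18 to 7.25 in Sp1+/+ Flk+ cells, 7.77 to 7.79 in Sp1-/- Flk+ cells, 7.48 to 7.55 in Sp1+/+ HE1 and 7.66 to 8.04 in Sp1-/- HE1. Foxa1 and Foxa2 had a lower change (0.817% of all genes did). Of the 18, 9 had a negative and 9 a positive difference, with a median of -0.00 that was -0.24 with the 75th percentile scaling. Of 17 epithelial markers, 3 were higher in Sp1-/- Flk+ cells (0.66% of all genes were). Cdh1, Cldn7 and Ocln had a lower change (0.817% of all genes did), the Cldn7 call under 7 of 17 settings. Of the 17 markers, 11 had a negative and 6 a positive difference, with a median of -0.17. The list mean ran from 8.83 to 8.96 in Sp1+/+ Flk+ cells and from 9.13 to 9.30 in Sp1-/- Flk+ cells. In HE1 it ran from 8.53 to 8.87 in Sp1+/+ and from 8.45 to 8.73 in Sp1-/- cells. Ocln, a tight junction protein, was not well above background in Sp1+/+ Flk+ cells, and its difference is given as at least 3.19-fold. It rose by the test only in Sp1+/+ cells and was not among the markers higher in Sp1-/- Flk+ cells. Of 14 neural markers, 2 were higher and 0 lower in Sp1-/- Flk+ cells (0.66% and 0.844% of all genes). Zic2 had a lower change. Of the 14, 9 had a positive and 5 a negative difference, with a median of 0.12. These lists stand beside Cer1, Robo3, Slit1 and the other genes called higher in Sp1-/- Flk+ cells and not in HE1. Of 15 fibroblast markers, Twist2, Dcn and Thy1 had a higher change (0.53% of all genes did), and the list median was 0.69. The Dcn call held under 8 of 17 settings. Of the 15, 10 had a positive and 5 a negative difference. In HE1, 2 were higher and 2 lower in Sp1-/- cells (0.8% and 1.1% of all genes). Thy1 fell in both genotypes. It read 10.92 and 11.01, then 6.86 and 7.17, in Sp1+/+ cells. In Sp1-/- cells it read 9.77 and 9.42, then 6.95 and 6.81. Its higher change thus reflects a higher start in Sp1+/+ Flk+ cells, and the genotypes overlapped in HE1. The mean of the list was 8.48 and 8.62 in Sp1+/+ Flk+ cells, 9.29 and 8.55 in Sp1+/+ HE1, 8.35 and 8.29 in Sp1-/- Flk+ cells, and 9.66 and 9.03 in Sp1-/- HE1, so replicate 1 was the higher array in both HE1 groups. Without Sp1-/- HE1 replicate 1, only Thy1 of the fibroblast list was called and the median was 0.32. Of 32 measured matrix genes, Lama4 and Dcn had a higher change (0.53% of all genes did), the Lama4 call under 10 of 17 settings.

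The arrays of HE2 and progenitors, which took no part in choosing these genes, show which genotype differences were also present in those populations. Per the methods, these cells and HE1 were sorted from the same blast cultures, so the arrays are not a separate experiment. Over all genes, 1.94% differed between the genotypes in HE2 and 4.14% in progenitors. Of the 302 genes with a lower change, 120 were lower in Sp1-/- HE1 but not in Flk+ cells. Of these, 72 (60%) were also lower in HE2, where 1.14% of all genes were, and 56 (46.7%) were lower in progenitors, where 2.6% were. None was higher in either. Lyve1, Crip1, Impa2 and Trp53i11 belong to this group, with Sp1-/- minus Sp1+/+ values of -2.95, -3.56, -2.19 and -2.25 in HE2. Of the 196 genes with a higher change, 56 were higher in Sp1-/- HE1 but not in Flk+ cells. In HE2, 15 of them (26.8%) were higher, against 0.798% of all genes, and in progenitors 13 (23.2%) were higher and 3 lower, against 1.54% higher. Rprm and Wipf3 were still higher in HE2 (1.76 and 1.81) and did not pass the test in progenitors. Without Sp1-/- HE1 replicate 1, the first group held 236 genes, of which 36.4% were lower in HE2, and the second 444, of which 4.73% were higher.

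Differences called in Flk+ cells and not in HE1 were called again, in the same direction, in at most 19.4% of these genes. Of 69 genes higher only in Sp1-/- Flk+ cells, 6 (8.7%) were higher and 1 lower in HE2, where 0.798% of all genes were higher. In progenitors 7 (10.1%) were higher and 4 lower, against 1.54% of all genes higher. Of 67 genes lower only in Sp1-/- Flk+ cells, 2 (2.99%) were lower in HE2, against 1.14% of all genes, and 13 (19.4%) were lower and 2 higher in progenitors, against 2.6% lower. Robo3 and Slit1 had Sp1-/- minus Sp1+/+ values between -0.08 and 0.51 in the later populations. Cer1 was not well above background on any HE2 or progenitor array, so its values there cannot show whether the genotypes differed. Smim20, Tmem159, Renbp and Gstk1, in contrast, were lower in Sp1-/- HE2 and progenitors by 1.66 or more on the log2 scale. These arrays lay on the same slides as those of Flk+ cells and HE1, with each genotype on its own.

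**Figure D4:**
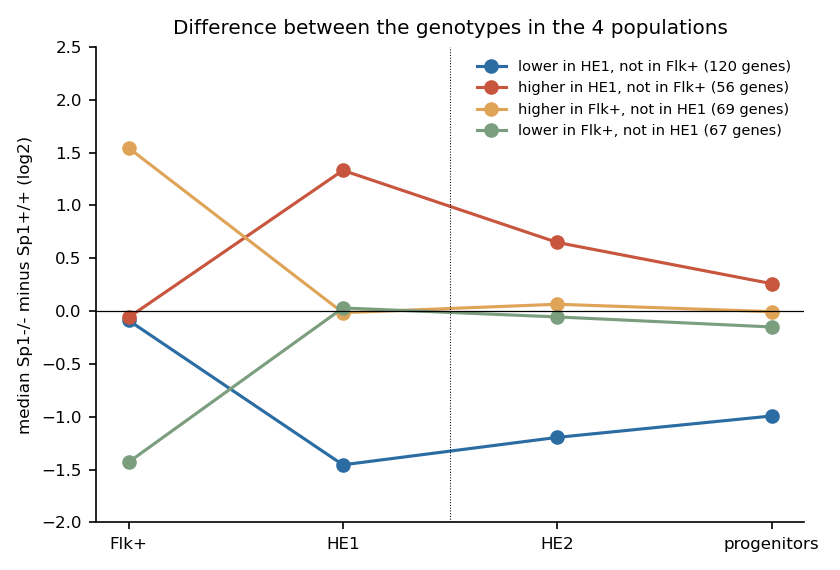
Median over genes of the Sp1-/- minus Sp1+/+ difference (log2, vertical axis) in 4 populations, for 4 groups of called genes defined by their Flk+ and HE1 calls. The dotted line separates the populations that defined the groups (left) from those that did not (right). The 120 genes newly lower in HE1 have medians of -1.20 in HE2 and -0.99 in progenitors, and the 2 groups that differed only in Flk+ cells lie near 0.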

How the data were processed

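RNA of Flk+, HE1, HE2 and progenitor cells from Sp1+/+ and Sp1-/- ES cells was hybridized to 16 one-color Agilent arrays. Per the labels, spots were quantified with Agilent Feature Extraction 10.7.1.1, and the file headers give 10.7.3.1. The authors deposited scanner intensity values for each spot and a table of normalized log2 values. The methods state limma normexp at an offset of 16 with quantile normalization, but the deposited log2 values were matched to within 0.005 with an offset of 50 and differed by up to 1.63 with 16. The larger offset pulls low signals together, so differences of dim genes are understated.

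Control spots and flagged spots (95 to 151 per array) were left out, and spots of 1 probe averaged. Of 37932 target names, 20869 found a symbol by accession and 6 by symbol. A gene was kept at a log2 value of 6 on at least 1 of the 8 arrays and read from its brightest probe. This minimum removed few genes, since the lowest signals well above background lay between 5.85 and 6.06. Of the 36977 genes tested, 16933 have no symbol. One limma model (R 4.3.3, limma 3.58.1) with 4 groups of 2 arrays, 4 residual degrees of freedom and moderated variances estimated the change in each genotype, their difference and the difference between the genotypes in each population. A second model held the HE2 and progenitor arrays. Calls needed p at most 0.01 before adjustment and 2-fold. The methods give both thresholds without saying whether p was adjusted. Calls are set beside Benjamini-Hochberg values over all genes tested. For a group with no array well above background, a fold is a bound against the lowest signal of a probe well above background. The fit was tested on simulated data.

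Named are, of called genes with a symbol whose changes do not overlap between the genotypes, the 6 largest in each class where 1 genotype moved, the 4 largest in each direction where the genotypes moved in opposite directions, and the 3 largest in each direction otherwise (45 in all), plus Sp1 and called genes of 26 gene lists. Some genes of these lists are not reported here. The members and lists were chosen with earlier results of these data known. Of 185 further probes for 131 called genes, 160 (86.5%) had the same sign as the brightest. Alternatives covered background correction, scaling, filters, probe choice, all 16 arrays, a replicate block, array weights, each array left out and thresholds.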

Additional observations from a re-analysis of the deposited data

Results flagged for a closer look

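In 3 named genes the 2 genotypes changed in opposite directions from Flk+ cells to HE1, and each change passed the test alone. The difference of the change was -3.21 for Foxa2 (adjusted p = 0.101), -2.75 for Gstk1 (adjusted p = 0.0597) and 2.28 for Rprl2 (adjusted p = 0.120), all by limma with Benjamini-Hochberg adjustment over 36977 genes. Over 17 alternative settings their values ran from -4.38 to -2.40, from -3.10 to -2.45 and from 1.97 to 2.59, and each stayed called. The number of genes whose change differed between the genotypes at an adjusted p of 0.05 and 2-fold was 17. It ranged from 0 without Sp1+/+ Flk+ replicate 1 or 2, without Sp1+/+ HE1 replicate 2, without Sp1-/- HE1 replicate 2, without either Sp1-/- Flk+ array or with an offset of 16, and 1 with the replicate block, to 268 without Sp1-/- HE1 replicate 1.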

How the results depend on the processing

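Of 498 genes called for the difference of the change, all kept their direction under every setting with the exception of the processed signal, where 495 did. All 82 named genes kept their direction under 17 settings and 42 kept their call under each. A gene named above without a count of settings is not always one of these 42. Because the changes did not overlap over the arrays in any called gene, leaving out 1 array could not turn a direction. A kept direction under those settings is therefore no separate check. Called genes numbered 569 with an offset of 16, 648 with the processed signal, 563 without background correction, 518 with probes well above background, 448 with the mean over probes, 594 with all 16 arrays and 486 with array weights. Deviations of same-numbered arrays correlated above 0.1 in 3 of 6 pairs of groups (-0.09 to 0.28) and not in the others, so the numbers were not taken to pair the arrays. With the replicate block the count was 603, 467 of the 498 genes remained, and 1 gene passed the adjusted p of 0.05 and 2-fold. The count was 17 at an adjusted p of 0.05 and 2-fold, 1158 at p of 0.01 with no fold threshold and 1127 at 2-fold with no p. With p of 0.01 and no fold threshold, 7443 genes changed in Sp1+/+ cells and 8151 in Sp1-/- cells. With the processed signal, the genotypes differed in 931 genes for Flk+ cells (556 otherwise), 1361 for HE1 (702), 1230 for HE2 (717) and 2328 for progenitors (1531). The lower share then was 42.5% in HE1, against 57.8%.

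Leaving out 1 array gave 368 to 1327 genes for the difference of the change, 2872 to 3258 for the Sp1+/+ change, 3303 to 4640 for the Sp1-/- change, and, between the genotypes, 508 to 856 for Flk+, 575 to 1647 for HE1, 639 to 1006 for HE2 and 1206 to 1796 for progenitor arrays. The highest counts in HE1 came without Sp1-/- HE1 replicate 1, and the 856 without Sp1+/+ Flk+ replicate 1. Where an array was left out, its lone partner was assumed to vary like the other groups. The counts of list genes and later calls without Sp1-/- HE1 replicate 1 were chosen after seeing the data. The causes were not tested. The number of arrays and the compressed low signals limit what dim genes can show.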
